A study of Mytilus galloprovincialis with 16 samples.

Results

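Of 1920 cDNA clones measured in the mantle of male mussels, 121 shifted in relative mRNA abundance between stages 2 and 3 of gonad development while staying flat, on average, from stage 1 to 2 and from stage 3 to 4. These clones were 44 risers and 77 fallers. They were chosen on the authors' deposited log2 ratios (later over earlier stage), averaged over the 2 spots of each clone. A member had a mean of at least 0.4 in size over the 4 Stage3/Stage2 arrays with the same sign on all 4, and means below 0.3 in size over the 4 Stage2/Stage1 and the 4 Stage4/Stage3 arrays. The ratios of those 12 arrays are therefore given as a description, with no test. The 4 Stage4/Stage1 arrays were not used in the choice, and the only test is of their mean ratio. The spread in that test was estimated over all 16 arrays, those 12 included.

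The mussels were Mytilus galloprovincialis from the Bizerta Lagoon, Tunisia. Each of the 16 dual-colour arrays compared mantle RNA of a single male of a later stage with that of a single male of an earlier one, 4 arrays for each of 4 pairs of stages, with the later stage in Cy5 on 2 arrays of a pair and in Cy3 on the other 2. The stages were early (stage 1), development (stage 2), ripe (stage 3) and spawning (stage 4), judged by histology. Each stage was sampled in 1 month (November, January, February and March), so stage and season cannot be told apart. For Stage3/Stage2 replicate 1 the labels give differing months for the same channel, and the stage of its title was used. The methods describe a loop in which RNA of each stage was set against RNA of the next, in 4 biological replicates of single animals, so an RNA may have been used on 2 arrays. Which arrays share an animal is not given, and p-values measure the spread between arrays.

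In mussels the gonad has no compartment of its own but spreads through the mantle, which also stores reserves. In a male, follicles fill with sperm as the season advances, are packed when the animal is ripe and empty at spawning. The mix of cells in a piece of mantle changes with this cycle, and in such whole tissue fewer cells of a type and less RNA per cell cannot be told apart. No table used here pairs the clones with genes, so no gene, function or sequence is given for a member, the male germ cell content of the samples was not checked against markers, and only 2 risers and 2 fallers are named.

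Clones that shifted at stage 3 alone were fewer (44 and 77) than those also not flat in another pair (154 that rose, 196 that fell). Over all clones, 1113 (57.97%) were flat in both other pairs. The size and signs asked of the Stage3/Stage2 arrays were met by 198 clones that rose (10.3% of all clones) and 273 that fell (14.2%), and the risers and fallers described here are the part of these that was flat in both other pairs. Among the clones that rose and were left out, 85 failed only on Stage4/Stage3, 14 only on Stage2/Stage1 and 55 on both. Among those that fell, 50 failed only on Stage4/Stage3, 59 only on Stage2/Stage1 and 87 on both. The thresholds cut through a continuous range. The riser with the smallest shift had 0.4036 and the nearest clone outside 0.3958, and for fallers the values were -0.4002 and -0.3981. The Stage4/Stage3 mean nearest its limit was 0.288 in a riser and -0.295 in a faller, against -0.305 in the nearest excluded clone on either side. For Stage2/Stage1 the values were 0.288 inside and 0.307 outside for risers, and 0.293 inside and 0.3002 outside for fallers.

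The shifts were modest. Risers had a median log2 ratio of 0.52 from stage 2 to 3 (range 0.40 to 0.86) and fallers of -0.53 (range -1.14 to -0.40). A shift of at least 0.5 was seen in 25 risers and 47 fallers, and a shift of at least 1 in 0 risers and 3 fallers. From stage 1 to 2 the medians were 0.08 in risers and -0.02 in fallers. From stage 3 to 4 they were -0.05 in risers and 0.02 in fallers. Over the 4 arrays of a clone the median SD on Stage3/Stage2 was 0.25 for risers and 0.32 for fallers.

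The size of the shift differed between arrays. On Stage3/Stage2 replicates 1 to 4 the risers' medians were 0.36, 0.65, 0.65 and 0.43. The fallers' medians were -0.53, -0.53, -0.91 and -0.27. Replicate 3, where the fallers moved most, also had the widest ratios over all clones, with an SD of 0.79 against 0.42 to 0.67 on the other Stage3/Stage2 arrays. Averaged by dye, the fallers' median was -0.40 with stage 3 in Cy5 and -0.72 with stage 3 in Cy3, whereas the risers' medians were 0.57 and 0.52. The part of dye and array in these sizes was not tested.

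**Figure D1:**
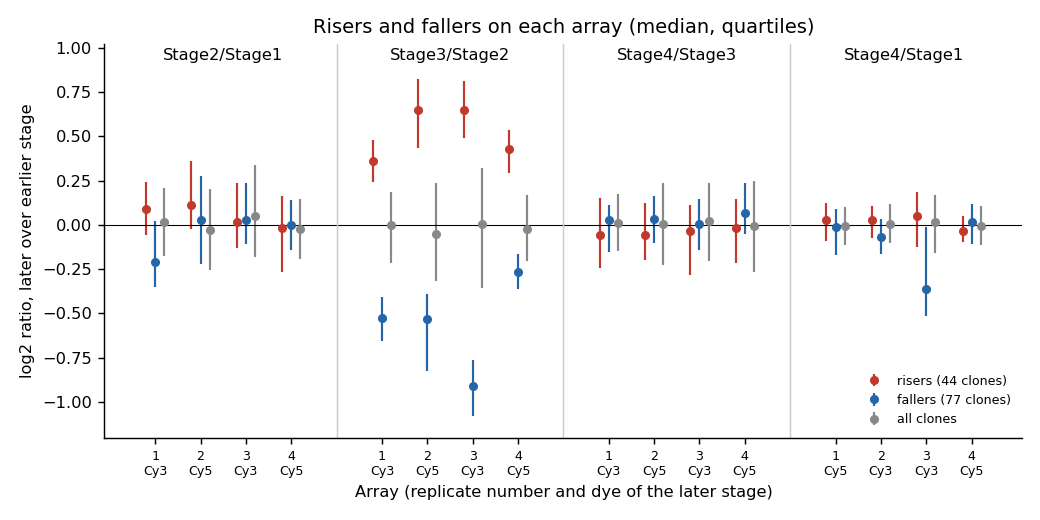
Log2 ratio (later over earlier stage, deposited values) of the 44 risers, the 77 fallers and all 1920 clones on each of the 16 arrays, as the median (point) and quartiles (bar), with the replicate number and the dye of the later stage on the horizontal axis. Risers and fallers separate on all 4 Stage3/Stage2 arrays, as the choice of members requires, and lie near 0 elsewhere except the fallers on Stage2/Stage1 replicate 1 (-0.21) and Stage4/Stage1 replicate 3 (-0.36).

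Flat on average did not mean flat on every array. At least 1 Stage2/Stage1 array reached 0.4 in size in 23 risers and 42 fallers, and at least 1 Stage4/Stage3 array did so in 18 risers and 21 fallers. Means within 0.1 of 0 in both flat pairs were found in 7 risers and 15 fallers. All 4 Stage4/Stage3 arrays had the same sign in 15 risers, of which 8 ran on with the rise and 7 against it. They had the same sign in 20 fallers, of which 5 ran on with the fall and 15 against it. In those 7 risers and 15 fallers all 4 arrays showed a small return towards the stage 2 level. These counts come from arrays used in the choice and carry no share over all clones. Whether they are unusual was not tested.

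Signal strength differed between the directions. A clone was called bright in a channel when the foreground of at least 1 of its spots lay over 2 background SDs above the local background. The fallers were bright in both channels on a median of 13 of the 16 arrays and the risers on 9, against 4 for all clones. On all 4 Stage3/Stage2 arrays 45 of 77 fallers and 24 of 44 risers were bright in both, against 37.3% of all clones. Both duplicate spots, taken alone, showed the stage 3 shift asked for in 55 fallers and 29 risers. These are the spots whose average chose the members, so the counts are a description and do not check the shift. They carry no share over all clones. The duplicates of a clone also lie in the same print block.

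The named risers and fallers are the 2 of each direction with the largest shift among members bright in both channels on 12 or more arrays. Myt01-013C12, the riser with the largest shift, had log2 ratios of 0.27, 1.06, 1.58 and 0.55 on Stage3/Stage2 replicates 1 to 4, a mean of 0.86 ± 0.58 (SD, n = 4) or 1.82-fold. It went on to 0.22, 0.14, 0.36 and 0.33 on Stage4/Stage3. All 4 of these were above 0, with a mean of 0.26, on arrays that the choice of members used. On Stage4/Stage1 it had -0.19, -0.06, -0.04 and -0.03, all below 0, although its 3 successive means sum to 0.97.

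Myt01-004B03, the riser with the second largest shift, had 0.42, 0.97, 0.99 and 0.65 on Stage3/Stage2, a mean of 0.75 ± 0.27 (SD, n = 4). Its Stage4/Stage3 ratios were -0.17, -0.11, -0.27 and 0.18. On Stage4/Stage1 it had 0.43, -0.08, -0.11 and 0.09, which spread over both signs.

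Myt01-010D02, a faller, had -0.85, -0.83, -1.45 and -0.63 on Stage3/Stage2, a mean of -0.94 ± 0.35 (SD, n = 4). On Stage4/Stage3 it had -0.16, -0.15, -0.08 and -0.04. All 4 were slightly below 0. Its Stage4/Stage1 ratios were 0.03, 0.04, -0.56 and -0.06, so that only replicate 3 was low.

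Myt01-014G01, the other faller, had -0.85, -1.02, -1.23 and -0.55 on Stage3/Stage2, a mean of -0.91 ± 0.28 (SD, n = 4). It stayed closest to 0 afterwards of these 4 clones, with 0.04, 0.02, 0.03 and -0.04 on Stage4/Stage3. On Stage4/Stage1 it had -0.21, -0.25, 0.02 and 0.13, again of both signs, where its 3 steps sum to -1.01.

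**Figure D2:**
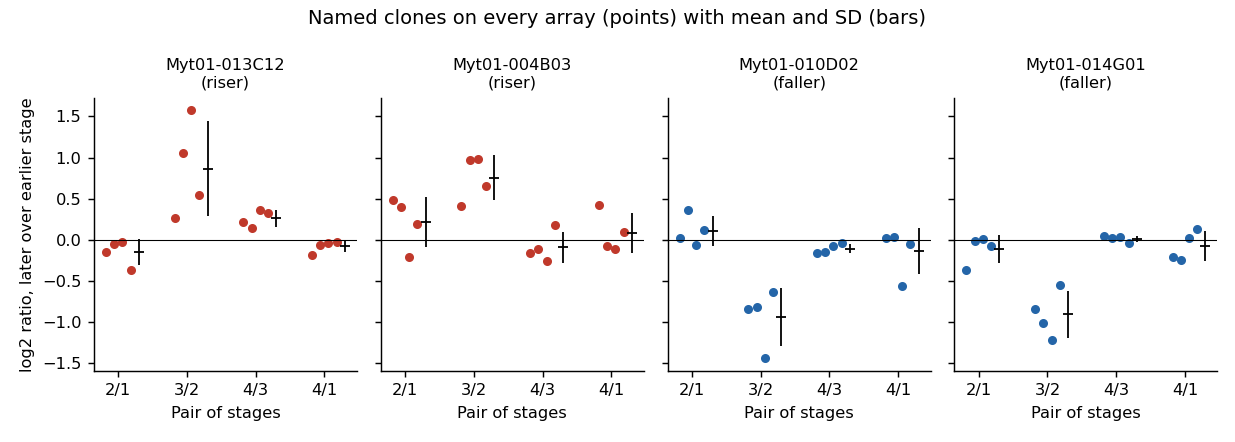
Deposited log2 ratios (later over earlier stage) of the 2 named risers and 2 named fallers on the 4 arrays of each pair of stages (points, replicates 1 to 4 from left), with the mean and SD (bar). Every Stage3/Stage2 point lies on the side of the shift, as the choice of members requires. The Stage4/Stage1 points are of both signs, except in Myt01-013C12, where all 4 lie slightly below 0. They are smaller in size than the Stage3/Stage2 points of the same clone, with 1 exception. In Myt01-004B03 replicate 1 has 0.428 on Stage4/Stage1 and 0.415 on Stage3/Stage2.

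Whether a shift at stage 3 was still present at stage 4 was examined on the direct comparison of stage 4 with stage 1. With limma fitted to the scanner intensities of all 16 arrays, 0 of 44 risers were called higher and 0 of 77 fallers lower at an adjusted p below 0.05, against 0.0% of all clones in either direction. The smallest adjusted p was 0.9997. At an unadjusted p below 0.05 there were 39 clones (2.03% of all clones, with 1.25% of all clones higher and 0.781% lower), among them 0 risers and 1 faller, which was lower. A threshold of 0.05 would pass a larger share than 2.03% even if no clone changed, so the p-values ran high here. The reason was not tested.

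The fitted changes were small as well as uncalled. Risers had a median change of 0.05 from stage 1 to 4 (range -0.16 to 0.33) and fallers of -0.07 (range -0.35 to 0.18), with a median standard error of 0.11 in each group. The 3 successive means, which contain the values that chose the members, summed on the same scanner values to a median of 0.51 in risers and -0.50 in fallers. The 95% interval of the direct change lay wholly below 0.4 in 38 of 44 risers, where 83.8% of all clones did so. It lay wholly above -0.4 in 62 of 77 fallers, where 85.7% of all clones did so. These shares were near those of the array as a whole. For the named clones the fitted changes were -0.05 (Myt01-013C12, 95% interval -0.35 to 0.26), 0.08 (Myt01-004B03, -0.21 to 0.37), -0.07 (Myt01-010D02, -0.27 to 0.13) and -0.02 (Myt01-014G01, -0.19 to 0.15). Since these arrays gave no call for holding, the members are described by their shift between stages 2 and 3.

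**Figure D3:**
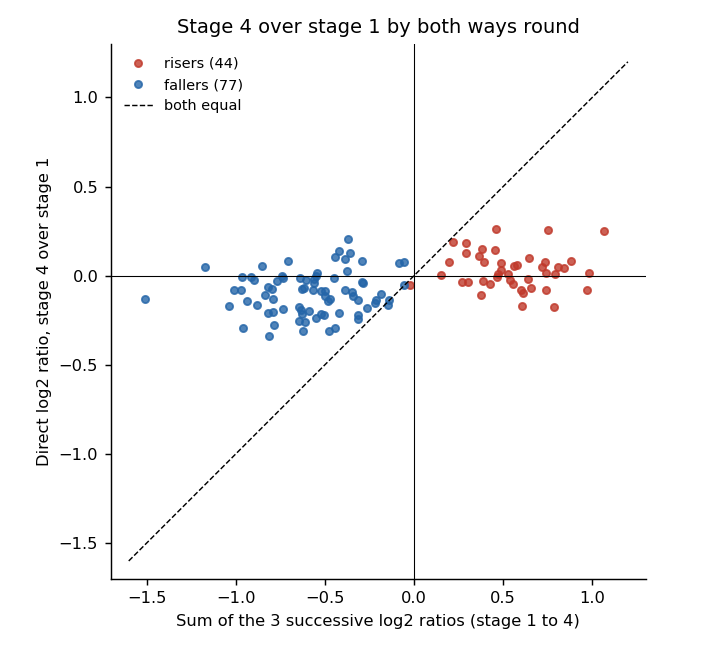
Deposited log2 ratio of stage 4 over stage 1 measured directly (vertical axis, mean of 4 arrays) against the sum of the 3 successive mean ratios (horizontal axis) for each riser and faller, with the line on which both are equal. The sums, which contain the values that chose the members, spread from -1.51 to 1.06, while the direct ratios stay between -0.34 and 0.26.

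Direct ratios were narrower than the sums over all 1920 clones too, with an SD over clones of 0.13 for the direct ratio and 0.78 for the sum (deposited values). Both correlated at 0.22 across clones, which are not independent replicates, and they share no array. In 157 clones of the whole array the 3 steps summed to 1 or more in size, with a median size of 1.61. Their direct ratio, turned to the sign of the sum, had a median of only 0.06, and 103 of them (65.6%) had the same sign. Small direct changes were therefore not particular to the members. The Stage4/Stage1 arrays agreed little with each other. Correlations across clones between arrays of this pair had a median of 0.01 (from -0.31 to 0.19), while the median was 0.47 among Stage2/Stage1 arrays, 0.77 among Stage3/Stage2 arrays and 0.72 among Stage4/Stage3 arrays. Duplicate spots on a Stage4/Stage1 array correlated at 0.41 to 0.73, and on other arrays at 0.59 to 0.94. Whether the shift lasted to stage 4 was therefore not settled by these arrays.

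**Figure D4:**
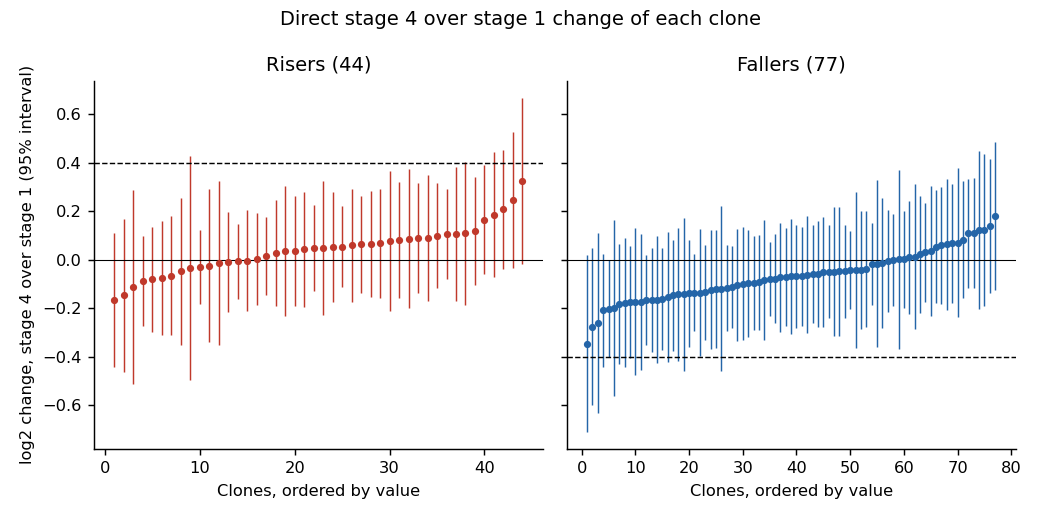
Fitted log2 change of stage 4 over stage 1 (limma, scanner intensities) with its 95% interval for each of the 44 risers and 77 fallers, ordered by value, with a dashed line at the size of shift asked at stage 3. The interval stays inside that line in 38 risers and 62 fallers.

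The direct ratios of fallers leaned below 0, and the lean was smaller without 1 array. In the scanner fit 58 of 77 fallers were below 0, against 47.3% of all clones, and 29 of 44 risers were above 0, against 52.7%. In the deposited values it was 63 fallers (48.4% of all clones) and 27 risers (51.6%). The fallers' array medians on Stage4/Stage1 replicates 1 to 4 were -0.01, -0.07, -0.36 and 0.01. Only replicate 3 stood well below 0, although on replicate 2 52 of 77 fallers were below 0 as well, against 933 of 1920 clones. On replicates 1 and 4, with stage 4 in Cy5, 43 and 33 fallers were below 0, against 1007 and 995 clones. Averaged by dye, the fallers' median was -0.01 with stage 4 in Cy5 and -0.22 with stage 4 in Cy3. Without replicate 3 the deposited means of 49 fallers (63.6%) were below 0, against 49.3% of all clones, and their median was -0.02 in place of -0.09. In the scanner fit without it 47 were below 0, against 47.3% of all clones. Replicate 3 carried stage 4 in Cy3, as did replicate 2, and its ratios were the widest of the 4 over all clones (SD 0.35, against 0.22 to 0.25). The part of dye and array in the lean was not tested.

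Of the 33 fallers bright in both dyes on every Stage4/Stage1 array, 32 had a deposited mean below 0, with a median of -0.17, against 286 of 516 clones of that brightness and a median of -0.03. Without replicate 3 it was 23 of 33 and a median of -0.01, against 284 of 516. The 15 risers of that brightness had 8 above 0 and a median of 0.01.

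On the direct arrays the members were set beside clones whose shift was reversed at stage 4. Flat to stage 2, then higher at stage 3 and lower again by at least 0.3 at stage 4, were 78 clones whose 3 steps sum to a median of 0.12. Their direct deposited ratio had a median of 0.08, with 65 of 78 (83.3%) above 0. The risers had a median of 0.01, with 27 of 44 (61.4%) above 0. The mirror set of 27 clones that fell and came back, with steps summing to a median of 0.04, had a direct median of -0.10 and 24 of 27 (88.9%) below 0. The fallers had -0.09, with 63 of 77 (81.8%) below 0. Without replicate 3 the medians were 0.03 in risers and 0.04 in the clones that rose and came back, and -0.02 in fallers and -0.06 in those that fell and came back. These sets share the choice on Stage3/Stage2 with the members, so the values are given side by side with no test.

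The clone identifiers name 20 plates of 96 clones, here counted in successive sets of 4 plates (384 clones each), with no test. Plates 1 to 4 held 17 risers (38.6%) and 5 fallers (6.49%). Plates 5 to 8 held 5 risers and 11 fallers. Plates 9 to 12 held 6 risers and 23 fallers, plates 13 to 16 held 10 and 24, and plates 17 to 20 held 6 and 14. No single plate made up a group, since risers came from 15 plates with at most 6 on any of them and fallers from 18 plates with at most 9. What the plates hold is not stated in the files. The 16 print blocks held 0 to 6 risers and 1 to 10 fallers each, and the median Stage3/Stage2 ratio over all clones of a block lay between -0.10 and 0.05. Fallers were most frequent in blocks 5 and 13 (10 each) and block 1 (9), and block 13 also held the most risers. The median Stage4/Stage1 ratio over all clones was lowest in blocks 5 (-0.051) and 13 (-0.057), and was -0.009 in block 1. Block 5 also had the lowest Stage3/Stage2 median. The part of the print block in the fallers' values was not tested.

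**Figure D5:**
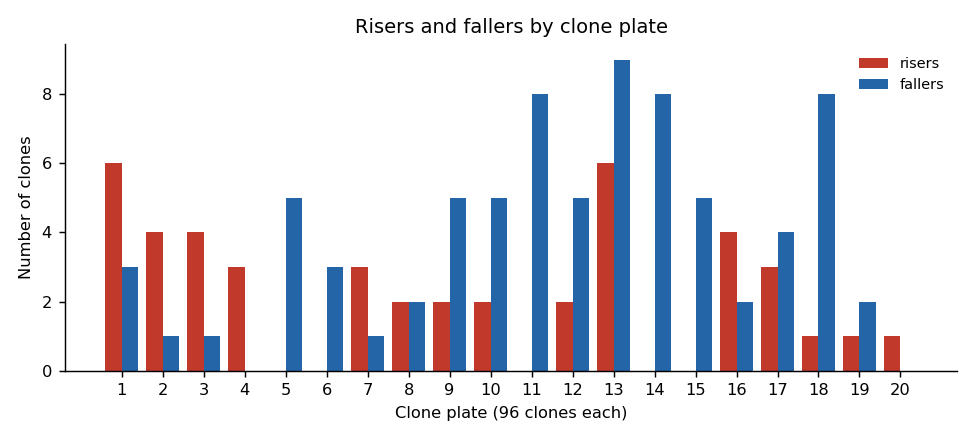
Number of risers and fallers on each of the 20 clone plates of 96 clones. Plates 1 and 13 hold the most risers (6 each) and plate 13 the most fallers (9).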

How the data were processed

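The scanner files the authors deposited hold raw intensity of each spot and its background, quantified with GenePix, in both dyes. The deposited series table gives a log2 ratio for each spot, background-corrected and loess-normalized. The submitters' processing notes name limma. Its columns correlated with scanner values at 0.982 to 0.999 when read as later over earlier stage, which settled direction. Their medians of -0.042 to 0.05 settled centring. A correlation does not depend on scale, so it does not settle that.

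Members were chosen on the deposited ratios. For the Stage4/Stage1 test, normexp (offset 50) and print-tip loess were applied to the scanner intensities in limma 3.58.1 (R 4.3.3), with blank and alignment spots given weight 0 in the loess. Duplicate spots were averaged, 1 mean per pair of stages was estimated from the 16 arrays together (12 residual degrees of freedom), and p-values (two-sided) were adjusted by Benjamini-Hochberg over 1920 clones with a threshold of 0.05. The mean of a pair rests on its 4 arrays. Its standard error uses a spread estimated over all 16 arrays, 12 of which the choice of members used. Named clones were the 2 largest shifts per direction among members bright in both channels on 12 or more arrays. Members and lists were chosen with earlier results of these data known. Figures were drawn with matplotlib 3.10.9.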

Additional observations from a re-analysis of the deposited data

Results flagged for a closer look

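Of 24 sets of 4 arrays looked at (the medians of risers and fallers and the ratios of the 4 named clones, in each pair of stages), 2 had an array far from the other 3. Chance alone would flag about 1 in 20 such sets. The fallers' median on Stage2/Stage1 replicate 1 was -0.21, while the other 3 arrays had medians of -0.000847 to 0.029. Myt01-010D02 had -0.56 on Stage4/Stage1 replicate 3 and -0.0581 to 0.035 on the others, the same array on which the median of all fallers was -0.36.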

How the results depend on the processing

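In all settings run, limma called 0 clones between stage 4 and stage 1, of 1920 tested (516 among bright clones only), and 0 had log odds (B) above 0. The smallest adjusted p ranged from 0.423 (arrays scaled to 1 spread) to 0.9999, and 9 (median centring) to 182 (loop fit) clones had an unadjusted p below 0.05. The risers' median change of 0.05 was 0.012 with median centring, 0.16 in the loop fit, which includes the arrays that chose the members, and 0.0031 to 0.0512 leaving out 1 array in turn (lowest without replicate 3). The fallers' median of -0.07 was -0.17 with median centring, -0.18 in the loop fit, -0.03 without background correction, and -0.11 to -0.018 leaving out 1 array. Leaving out 1 array, 22 to 31 risers were above 0, against 51.98% to 52.92% of all clones. Below 0 were 47 to 60 fallers, against 47.08% to 48.02%. Among bright clones only, 11 of 15 risers were above 0, against 46.12% of the 516 clones. Of the 33 bright fallers 30 were below 0, against 53.88%. Deviations of same-numbered arrays of different pairs correlated at -0.24 to 0.32 (12 of 24 above 0.1, all 6 of replicate 4). In 16 of 48 comparisons an array correlated best with its own number. A shared animal can raise or lower these values, so they cannot show pairing. The replicate block gave 0 calls and 47 clones at an unadjusted p below 0.05.

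Membership depended more on the processing. Fallers numbered 41 with median-centred values and 38 without background correction, of which 25 and 16 were among the 77. Risers numbered 32 in either setting, 19 and 6 of them among the 44. With global loess there were 48 risers (42 shared) and 75 fallers (65 shared). With print-tip loess there were 55 risers (34 shared) and 58 fallers (42 shared), and 2 of the 77 fallers had a Stage3/Stage2 mean above 0. Without background correction the median Stage3/Stage2 shift of the members was 0.28 in risers and -0.23 in fallers, and 3 fallers turned sign. A shift of at least 0.5 left 25 risers and 47 fallers, other pairs below 0.2 left 18 and 44, and clones bright on all Stage3/Stage2 arrays were 24 and 45. Leaving out 1 array gave 38 to 64 risers and 56 to 107 fallers. The larger shift, the flatter other pairs and the brightness condition make the rule narrower. The cause of the other differences was not tested.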
